A study of Mus musculus with 34 samples.

Results

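The genes described here are the nuclear-encoded subunits of the oxidative phosphorylation system and their near namesakes. They were taken by symbol from the gene count table: entries named Nduf with a subunit letter (a, b, c, s or v) and a number, Sdha to Sdhd, entries starting Uqcr, Cox4 to Cox8, and entries starting Atp5, without Cox6a2. This gave 85 of 29876 gene entries. By symbol, 37 belong to complex I (NADH dehydrogenase), 4 to complex II (succinate dehydrogenase), 9 to complex III (cytochrome bc1), 18 to complex IV (cytochrome c oxidase) and 17 to complex V (ATP synthase). The choice by symbol brings in a few entries with another role. Cox4nb is now called Emc8, a subunit of a membrane insertion complex of the endoplasmic reticulum. Atp5s and Atp5sl are now called Dmac2l and Dmac2, Uqcr and Uqcr11 are separate entries of 1 current gene, and Ndufa4, counted here with complex I, is found in complex IV.

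Complexes I, III and IV pump protons across the inner mitochondrial membrane as electrons pass from NADH and succinate to oxygen, and complex V uses the proton gradient to make ATP. Most subunits are encoded in the nucleus and a small core by mitochondrial DNA. A few subunits have paired isoforms that differ between tissues or respond to low oxygen, such as Cox4i1 and Cox4i2, Cox7a1 and Cox7a2, and Ndufa4 and Ndufa4l2. Maturing neurons are known for their dependence on respiration.

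RNA was sequenced from 28 libraries of mouse cell lines in 9 groups, 3 genotypes at 3 stages. The genotype labels were 129Sv +/+ (control), 129Sv df/+ (deletion of 1 copy of the 7qF3 region, which corresponds to human 16p11.2) and 129Sv df/dp (deletion on one chromosome 7 and duplication on the other, called duplication-deletion here). For the NPC duplication-deletion libraries another label names the deletion alone; they were grouped by title and genotype. The background strain label of every group was C57BL/6N. Embryonic stem cells (ESCs) were grown on gelatine with LIF. Neural progenitor cells (NPCs) of ventral midbrain lineage were harvested at day 5 of differentiation, after an epiblast stem cell phase, and immature dopaminergic neurons at day 16. Control, deletion and duplication-deletion libraries numbered 3, 3 and 3 in ESCs, 5, 3 and 3 in NPCs, and 4, 2 and 2 in neurons. Nothing in the labels says that replicates were separate lines or cultures, so a p-value here reflects how far the libraries of a group scatter, which may be technical.

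Depth ran from 5578151 to 78814037 counts per library and was lower in ESC replicate 3 and NPC replicate 5 of each genotype, here called the shallow libraries, than in the other libraries of the same stage. A single entry took 14.4% to 38.8% of the counts. Stage markers matched the labels in control cells. The summed level of 9 pluripotency genes was 1699 to 2622 CPM (counts relative to library size, scaled with TMM factors) in ESCs and at most 5.47 CPM later, and that of 8 dopaminergic genes was 528 to 705 CPM in neurons against 17.7 to 117 CPM in NPCs. Control neuron libraries also held 6 astrocyte markers (471 to 609 CPM, against 43.4 to 122 CPM in control NPCs). They held 6 fibroblast markers as well (729 to 2105 CPM, against 163 to 546 CPM in control NPCs). All genes of both lists had reads in control NPCs too, so the levels differ rather than the presence of reads. The part of these markers in the stage differences below was not tested. In such bulk RNA, fewer cells of a type and less RNA per cell cannot be told apart.

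The upstream sequence of the members is shown first, because genes of the respiratory chain are known for binding sites of NRF1 and of the ETS factor GABPA. RefSeq promoters (GRCm38.p6, 250 bases before to 50 after the gene start) were found for 69 current genes of the list. The NRF1 motif (GCGCA, any base, then GCGC) lay in 16 of them (23.2%, against 4.78% of 27025 promoters), the GABPA motif CCGGAAG in 15 (21.7% against 9.12%) and the YY1 motif AAGATGG in 11 (15.9% against 6.48%), counting either strand. At least 1 of these motifs was in 37 members (53.6%, against 18.4% of all promoters). The members' windows held more G and C, with a median of 57.3% against 52.7%, and the part of base composition in these shares was not tested. The 250 upstream bases are printed for 4 members that changed between control stages, a pair with motifs and a pair without, so that both kinds of promoter can be read. Motif letters are in capitals.
Ndufb4 (chr16:37654369-37654618, minus strand, 3 NRF1 motifs): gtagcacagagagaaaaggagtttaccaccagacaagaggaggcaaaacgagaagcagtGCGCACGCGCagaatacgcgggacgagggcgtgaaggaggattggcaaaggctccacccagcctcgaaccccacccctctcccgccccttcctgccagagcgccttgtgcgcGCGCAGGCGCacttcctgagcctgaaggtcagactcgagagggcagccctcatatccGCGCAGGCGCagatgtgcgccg
Atp5h (chr11:115419920-115420169, minus strand, 1 NRF1 motif and 1 GABPA motif read on the other strand): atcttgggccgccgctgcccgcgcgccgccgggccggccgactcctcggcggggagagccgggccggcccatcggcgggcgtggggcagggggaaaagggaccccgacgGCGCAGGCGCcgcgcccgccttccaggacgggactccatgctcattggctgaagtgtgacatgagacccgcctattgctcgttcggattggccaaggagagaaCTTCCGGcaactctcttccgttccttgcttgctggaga
Cox7a1 (chr7:30183921-30184170, plus strand, no motif): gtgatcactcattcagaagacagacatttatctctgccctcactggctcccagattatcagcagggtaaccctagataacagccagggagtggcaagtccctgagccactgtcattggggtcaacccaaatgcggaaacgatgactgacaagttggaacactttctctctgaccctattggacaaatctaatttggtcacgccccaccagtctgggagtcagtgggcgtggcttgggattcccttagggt
Cox7b (chrX:106015450-106015699, plus strand, no motif): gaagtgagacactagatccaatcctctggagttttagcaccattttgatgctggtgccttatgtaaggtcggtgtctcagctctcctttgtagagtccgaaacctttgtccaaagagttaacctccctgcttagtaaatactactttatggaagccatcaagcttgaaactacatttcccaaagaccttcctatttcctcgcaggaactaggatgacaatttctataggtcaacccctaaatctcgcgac
These upstream bases were 63.2% and 69.6% G or C for Ndufb4 and Atp5h, and 51.2% and 43.6% for Cox7a1 and Cox7b.

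In control cells the summed level of the members stood in the order ESC, NPC, neuron. It was 5641, 6663 and 7181 CPM in the ESC libraries. In the NPC libraries it was 3867, 4384, 4895, 4895 and 5544 CPM, and in the neuron libraries 2965, 3715, 3760 and 3841 CPM. No library of one stage reached into the next, with means of 6495 ± 783 (SD, n = 3), 4717 ± 629 (n = 5) and 3570 ± 407 CPM (n = 4). This gap depends on scaling: with RLE factors NPC sums ran from 3677 to 5115 CPM and neuron sums from 3280 to 3982 CPM, so these stages overlapped. As an unscaled share of all counts other than the largest entry, the members took 0.661% to 1.00% in ESCs, 0.521% to 0.757% in NPCs and 0.438% to 0.713% in neurons, with overlap throughout. Without Atp5a1 and Atp5b, the alpha and beta subunits of ATP synthase, the sums were 4731 ± 569, 3599 ± 446 and 2848 ± 330 CPM at the 3 stages. Complex V sums, at 2586 to 3331, 1659 to 2395 and 1144 to 1522 CPM, did not overlap between neighbouring stages. Complex IV sums were 887 to 1250, 550 to 818 and 477 to 675 CPM, and NPCs and neurons overlapped. Complex III sums were 654 to 1028, 541 to 765 and 325 to 528 CPM, and ESCs and NPCs overlapped. Complex I sums, at 1275 to 1600, 937 to 1317 and 816 to 1117 CPM, and complex II sums, at 240 to 266, 180 to 254 and 166 to 228 CPM, overlapped at both steps.

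**Figure D1:**
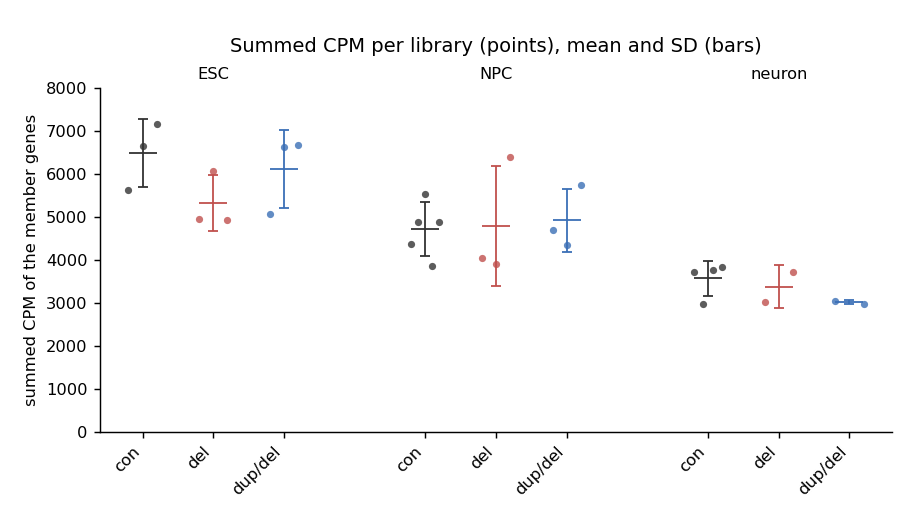
Summed CPM of the 85 member genes (y axis) in each of 28 libraries, by stage and genotype (x axis); points are libraries and bars the group mean and SD. Control sums lie between 5641 and 7181 in ESCs, 3867 and 5544 in NPCs, and 2965 and 3841 in neurons, and 1 deletion NPC library lies at 6411.

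Replicates of 1 group differed from each other in a shared way that bears on every comparison below. Complex III serves as the example, with a pair of genes picked after their values were seen. Uqcrb and Uqcrq encode small subunits of that complex. Uqcrb (mm9 chromosome 13, 67001557 to 67006286) had 278, 636 and 175 CPM in control ESC replicates 1 to 3, while Uqcrq (mm9 chromosome 11, 53242450 to 53244333) had 10, 5.86 and 39.7 CPM. The level of Uqcrq was thus 3.62%, 0.921% and 22.7% of that of Uqcrb. Replicate 3 stood high in the same way in deletion ESCs (16.8%, against 0.564% and 0.936%) and duplication-deletion ESCs (26.4%, against 0.995% and 0.876%). In NPCs replicate 5 stood high, with 7.86%, 29.2% and 20.1% in control, deletion and duplication-deletion cells against 0.337% to 2.6% in the other NPC libraries. In neurons the ratio was 0.982%, 3.36%, 33.9% and 37.1% in control replicates 1 to 4, 0.741% and 29.6% in deletion replicates 1 and 3, and 3.44% and 3.54% in duplication-deletion replicates 2 and 4. Replicates 3 and 4 of control and replicate 3 of deletion neurons were high, and neither duplication-deletion library was.

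**Figure D2:**
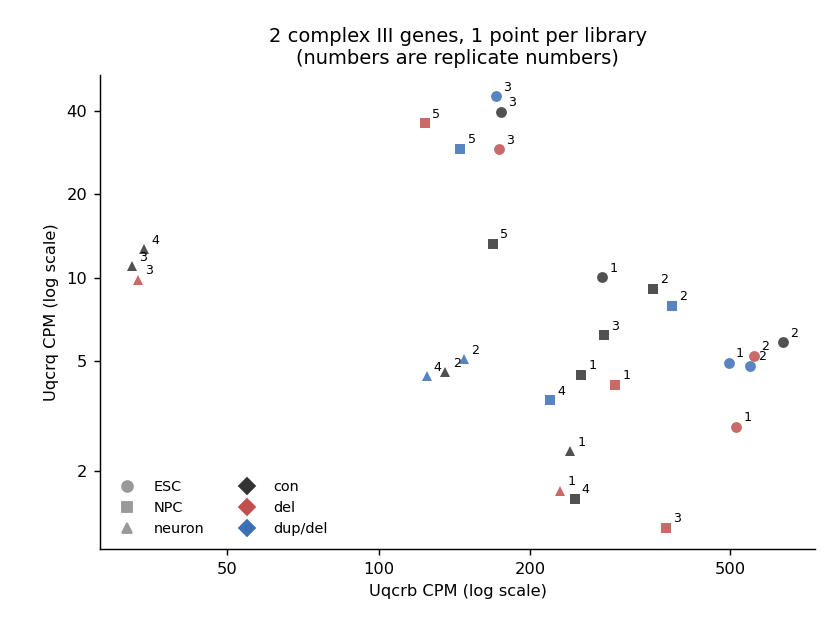
Level of Uqcrq (y axis, CPM, log scale) against Uqcrb (x axis, CPM, log scale) in each of 28 libraries; shapes give the stage, colours the genotype and numbers the replicate. ESC replicate 3, NPC replicate 5 and 3 neuron libraries lie up and to the left of the other libraries of their stage.

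Other members varied along the same axis to very different degrees. Over 80 members with a mean of at least 1 CPM, the first principal component of the deviations from group means (log2 of CPM plus 0.5) held 72.2% of the variation, and the next 7.79%. With Uqcrq taken as positive, 64 members had positive and 16 negative loadings. Deviations were not scaled to equal spread, so the least steady members weigh most in that share. Some loadings were near 0, such as those of Atp5sl (-0.00235) and Atp5j (0.00519). Beside Uqcrq, the positive end held Uqcr11, Atp5g1, Ndufa7, Cox6b2 and Cox5a, and the negative end Uqcrb, Ndufs6, Atp5h, Uqcrh and Ndufa6. These members were picked by their loadings. The replicate SD of a member ran from 0.187 (log2, Atp5sl) to 1.45 (Uqcrq), with a median of 0.489. Atp5a1 (0.189) and Ndufa10 (0.193) were among the steadiest members, and Uqcr11 (1.4) and Atp5g1 (1.08) among the least steady. In ESCs and NPCs the shallow libraries lay at the positive end of this axis. The other NPC libraries were not ordered by depth: deletion replicate 3, lowest on the axis, had 48630461 counts, and control replicate 1 (score -1.28) had 78814037. The share of the largest entry moved with the axis in ESCs, where replicate 3 had 14.4% to 20.8% against 24.8% to 29.8% in the other libraries. It did not in NPCs, where replicate 5 had 20.9% to 22.1% and deletion replicate 3, at the other end, 20.6%. In control neurons it was 38.8% and 28.4% in replicates 1 and 2, at the negative end, and 21.4% and 19.6% in replicates 3 and 4. In deletion neurons it was 36.8% in replicate 1, at the negative end, and 24.3% in replicate 3. The axis may not be particular to the members. Relative to stage controls, the median log2 level of ribosomal protein genes was 0.65 in deletion NPC replicate 5. It was -0.544 and -0.447 in deletion NPC replicates 1 and 3. In deletion neurons it was 0.553 in replicate 3 and -0.0653 in replicate 1. In deletion ESCs replicate 3 (-0.295) lay between the others (-0.643 and -0.266). Over all genes tested, ESC replicates 3 deviated together (correlation 0.569 to 0.692). The part of depth and of the largest entry in the axis was not tested, and no label names a batch.

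The control stages ask how the respiratory genes change during differentiation itself. From ESC to NPC, 16 of 82 tested members fell and 0 rose, where 41.5% of all genes tested passed the threshold (20.5% lower). The median log2 fold change was -0.46, with 73 members negative, against 0.01 over all genes. Fallen members came from complexes I (5 of 37), III (2 of 9), IV (6 of 15) and V (3 of 17), and none of the 4 genes of complex II passed. The largest falls were in isoform genes: Ndufa4l2, Cox4i2 and Cox7a1. Differences here are edgeR quasi-likelihood log2 fold changes with SE, and adjusted p-values are Benjamini-Hochberg values over all genes tested, with a threshold of 0.05.

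**Figure D3:**
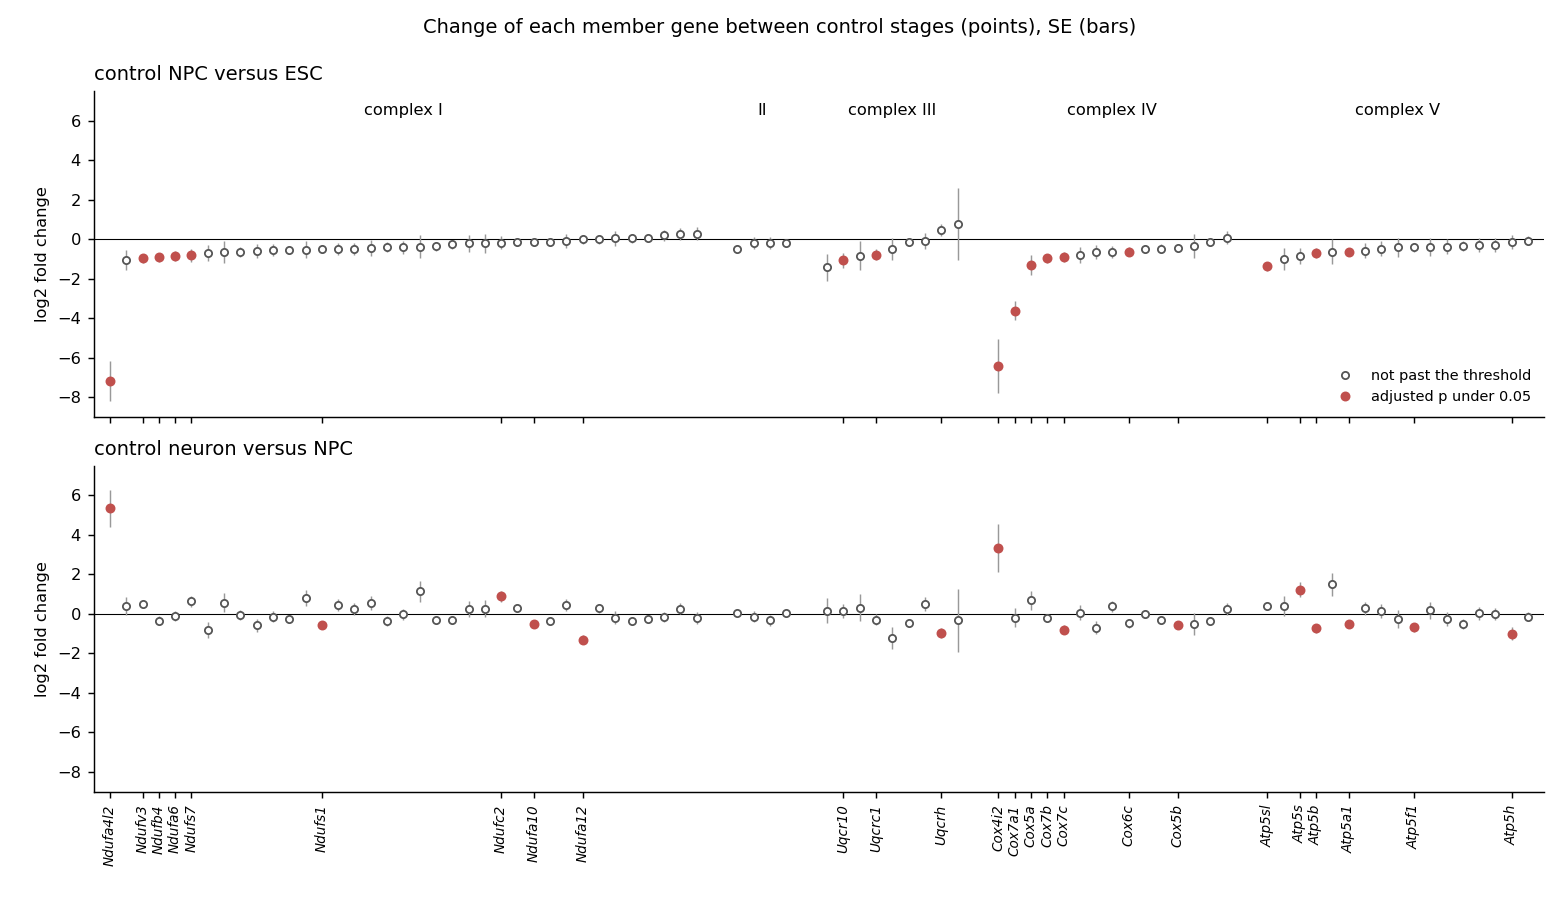
Log2 fold change with SE (y axis) of each tested member (x axis, by complex, with names for those that passed at either step) for control NPC against ESC (upper panel) and control neuron against NPC (lower panel); filled points passed the threshold. In the upper panel 16 filled points lie below 0 and none above; in the lower panel 10 lie below and 4 above.

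Ndufa4l2 (mm9 chromosome 10, 126951995 to 126954210), a relative of Ndufa4 that is induced by low oxygen and restrains respiration, had 1.47, 11.8 and 31.3 CPM in control ESCs. Its 5 control NPC libraries lay between 0 and 0.217 CPM. The groups did not overlap, and the fall was -7.18 ± 1.02 (adjusted p = 8.69e-05). Cox4i2 (mm9 chromosome 2, 152579909 to 152590773), the low-oxygen isoform of the subunit made by Cox4i1, had 0.542, 1.6 and 5.38 CPM in ESCs and no counts in NPCs except 0.138 CPM in replicate 4 (-6.40 ± 1.37, adjusted p = 0.00194). In both genes replicate 3 was the highest ESC library. Cox4i1 itself had 138, 143 and 132 CPM in ESCs and 74.7 to 130 CPM in NPCs, a difference of -0.51 ± 0.205 that missed the threshold (adjusted p = 0.0584).

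Cox7a1 (mm9 chromosome 7, 30969190 to 30971049), the isoform of subunit 7a known from heart and skeletal muscle, had 4.57, 6.12 and 13.1 CPM in ESCs and 0.433 to 1.21 CPM in NPCs. All ESC libraries lay above all NPC libraries (-3.61 ± 0.504, adjusted p = 7.59e-05). Summed muscle markers (8 genes) were at 13.0 to 21.3 CPM in control ESCs and 17.4 to 118 CPM in control NPCs, which overlap, and Myod1 was at 0 in these NPCs. The isoform of other tissues, Cox7a2, had -0.64 ± 0.304 (adjusted p = 0.11), and Cox7a2l, whose product joins complexes III and IV, had 0.06 ± 0.334 (adjusted p = 0.902). The testis isoforms Cox7b2 and Cox8c had too few reads to be tested. Cox7b2 had 11 counts over the control ESC libraries and Cox8c 18, and both had 0 in all NPC and neuron libraries. With control NPCs set at a floor of 3 counts over the group, they were 10.6-fold and 17.3-fold lower. That floor covers the counting error of NPCs only and takes the ESC counts as they stand. Cox6b2, the testis isoform of subunit 6b, kept reads at every stage, with 1.72 to 8.86 CPM in ESCs and 2.03 to 4.49 CPM in NPCs (-0.36 ± 0.615, adjusted p = 0.674), beside its partner Cox6b1 at -0.17 ± 0.185.

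Among subunits common to all tissues the falls were smaller. Cox7b, a small structural subunit of complex IV, had 77.6, 103 and 88.3 CPM in ESCs and 32.6 to 56.1 CPM in NPCs (-0.96 ± 0.227, adjusted p = 0.00392). Ndufb4, a membrane arm subunit of complex I, had 51.5, 65.5 and 60.2 CPM against 19.7 to 40.5 CPM (-0.92 ± 0.233, adjusted p = 0.00602). Ndufv3, an accessory subunit of the arm that binds NADH, had 52, 94.1 and 72.6 CPM against 30.4 to 43 CPM (-0.98 ± 0.216, adjusted p = 0.00242). None of these 3 genes overlapped between the stages. Atp5sl (Dmac2), which takes part in building the distal membrane arm of complex I, fell by 1.37 on the log2 scale (SE 0.215, adjusted p = 0.000194), from 21.5, 25.1 and 26.9 CPM to between 7.95 and 11.3 CPM.

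The genes of the alpha and beta subunits of ATP synthase fell as well. Atp5b, the beta subunit, had 811, 740 and 1151 CPM in ESCs and 409 to 717 CPM in NPCs (-0.71 ± 0.234, adjusted p = 0.0263), and Atp5a1, the alpha subunit, had -0.63 ± 0.195 (adjusted p = 0.018). In complex III, Uqcr10 (-1.08 ± 0.376, adjusted p = 0.0335) and the core subunit Uqcrc1 (-0.79 ± 0.283, adjusted p = 0.0369) passed, and in complex IV Cox5a did (-1.32 ± 0.505, adjusted p = 0.0496). Outside the naming rule, Ndufa6 (-0.85), Ndufs7 (-0.82), Cox7c (-0.89) and Cox6c (-0.63) complete the count. Ndufa4l2, Ndufv3, Ndufb4, Cox4i2, Cox7a1, Cox7b and Atp5sl passed without any single library. The calls of Uqcr10, Uqcrc1, Cox5a, Atp5b and Atp5a1 did not: each was lost without control ESC replicate 3, among others, and without the shallow libraries, where their values were -0.82, -0.47, -0.92, -0.47 and -0.58. The median over members was -0.24 without control ESC replicate 3 and -0.30 without the shallow libraries. Without control ESC replicate 3 or control NPC replicate 4, 10 members passed.

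The 4 succinate dehydrogenase genes, which encode the entry point for electrons from succinate, gave no call at either control step. Sdha, the flavoprotein, had -0.48 ± 0.196 from ESC to NPC (adjusted p = 0.065), Sdhb, the iron-sulfur subunit, had -0.18 ± 0.184 (adjusted p = 0.47), and the membrane anchors Sdhc and Sdhd had -0.20 ± 0.294 and -0.21 ± 0.305. From NPC to neuron the 4 genes ran from -0.32 to 0.05. Sdhc had 18.5 CPM in control neuron replicate 2 and 37.9 to 40.7 CPM in the other control neurons.

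From NPC to neuron the members split. Of 82 tested, 4 rose and 10 fell, where 43.7% of all genes passed (23.2% higher, 20.5% lower). The median of the members was -0.12, with 37 positive and 45 negative, and that of all genes was 0.10. This split moved with scaling: with RLE factors 8 members were higher and 5 lower (median -0.00, all genes 0.22), and with DESeq2 10 were higher and 8 lower. The median of the members lay below that of all genes under both TMM and RLE factors, without allowance for mean level. The directions of Ndufa4l2, Cox4i2 and Ndufa12 below held under all 3 settings. The member median turned to 0.10 without neuron replicate 1 and to 0.01 without neuron replicate 2 or NPC replicate 3. Genes were also split by mean level at the median member, after the values were seen. In the upper part the median was -0.32 for 42 members and -0.49 for 4195 genes. In the lower part it was 0.30 for 40 members and 0.37 for 14103 genes. Proliferation markers moved with this step, with 8 genes at 2991 to 3767 CPM in NPCs and 124 to 228 CPM in neurons, and their part in it was not tested.

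Ndufa4l2 and Cox4i2 rose again. Ndufa4l2 had 2.15, 2.71, 2.2 and 9.33 CPM in control neurons, above every control NPC library (5.34 ± 0.94, adjusted p = 0.000439), and replicate 4 stood highest. Cox4i2 had 0.322, 0.285, 0.123 and 0.439 CPM in neurons (3.34 ± 1.23, adjusted p = 0.0404). That level rests on 69 counts over 4 libraries against 7 counts over 5 NPC libraries, and the call was lost without any of 7 single libraries (adjusted p from 0.0543 to 0.0843). Cox7a1 stayed low, at 0.488 to 0.651 CPM (-0.19 ± 0.465, adjusted p = 0.777). Atp5s (Dmac2l), a factor coupled to ATP synthase, had 14, 3.27, 6.63 and 6.9 CPM against 2.55 to 4.21 CPM in NPCs (1.23 ± 0.381, adjusted p = 0.0177). Its replicate 1 was highest and the call was lost without it (0.87, adjusted p = 0.071). Ndufc2, a membrane arm subunit of complex I, had 26.4, 10.8, 35.2 and 41.8 CPM against 14.3 to 16.7 CPM (0.89 ± 0.295, adjusted p = 0.0256), so neuron replicate 2 lay below the NPC libraries, and the call was lost without NPC replicate 3 or 4 or neuron replicate 3 or 4 (adjusted p up to 0.11).

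Ndufa12 (mm9 chromosome 10, 93661754 to 93683693), an accessory subunit of the hydrophilic arm of complex I, fell most among the common subunits. It had 80.5 to 111 CPM in control NPCs and 55.7, 37.8, 27.9 and 28.9 CPM in control neurons, with no overlap (-1.31 ± 0.222, adjusted p = 0.000327). Uqcrh, the hinge protein of complex III that docks cytochrome c1, had 111 to 202 CPM in NPCs and 103, 68.3, 51 and 53.2 CPM in neurons (-0.97 ± 0.26, adjusted p = 0.00801). Cox7c, a small complex IV subunit, had 50.1 to 83.9 CPM against 28.9 to 45.3 CPM (-0.81 ± 0.227, adjusted p = 0.01). All neuron values of these 3 genes lay below all NPC values, and the calls held without any single library. Atp5h, the stalk subunit d of ATP synthase whose promoter is printed above, had 142 to 243 CPM in NPCs and 181, 85.5, 56.8 and 61.6 CPM in neurons (-1.01 ± 0.325, adjusted p = 0.022). Neuron replicate 1 lay within the NPC range, and the call was lost without neuron replicate 2, 3 or 4 (adjusted p from 0.0554 to 0.057).

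Atp5b fell at this step too, to 320, 249, 390 and 357 CPM (-0.73 ± 0.222, adjusted p = 0.016), and its neuron libraries lay below all NPC libraries. Atp5f1, the peripheral stalk subunit b, had -0.68 ± 0.214 (adjusted p = 0.0193), and Ndufa10 and Ndufs1 of complex I had -0.52 ± 0.164 (adjusted p = 0.0188) and -0.56 ± 0.19 (adjusted p = 0.0285). Cox5b, a complex IV subunit, had -0.58 ± 0.205 (adjusted p = 0.0344), and Atp5a1, outside the naming rule, had -0.49. With RLE scaling Ndufa10, Ndufs1, Cox5b and Atp5f1 no longer passed. Single libraries ended the calls of Atp5b and Ndufa10 (neuron replicate 1, adjusted p = 0.0591 and 0.0645), Atp5f1 (neuron replicate 3, adjusted p = 0.0509), Ndufs1 (7 of 9 libraries) and Cox5b (6 of 9). Without control neuron replicate 3 or 4, 9 members passed. Complex IV isoform partners gave no further call, with Cox4i1 at 0.00 ± 0.191, Cox7a2 at 0.38 ± 0.282, Cox7a2l at 0.25 ± 0.305, Cox6a1 at -0.32 ± 0.198 and Cox8a at 0.07 ± 0.374.

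**Figure D4:**
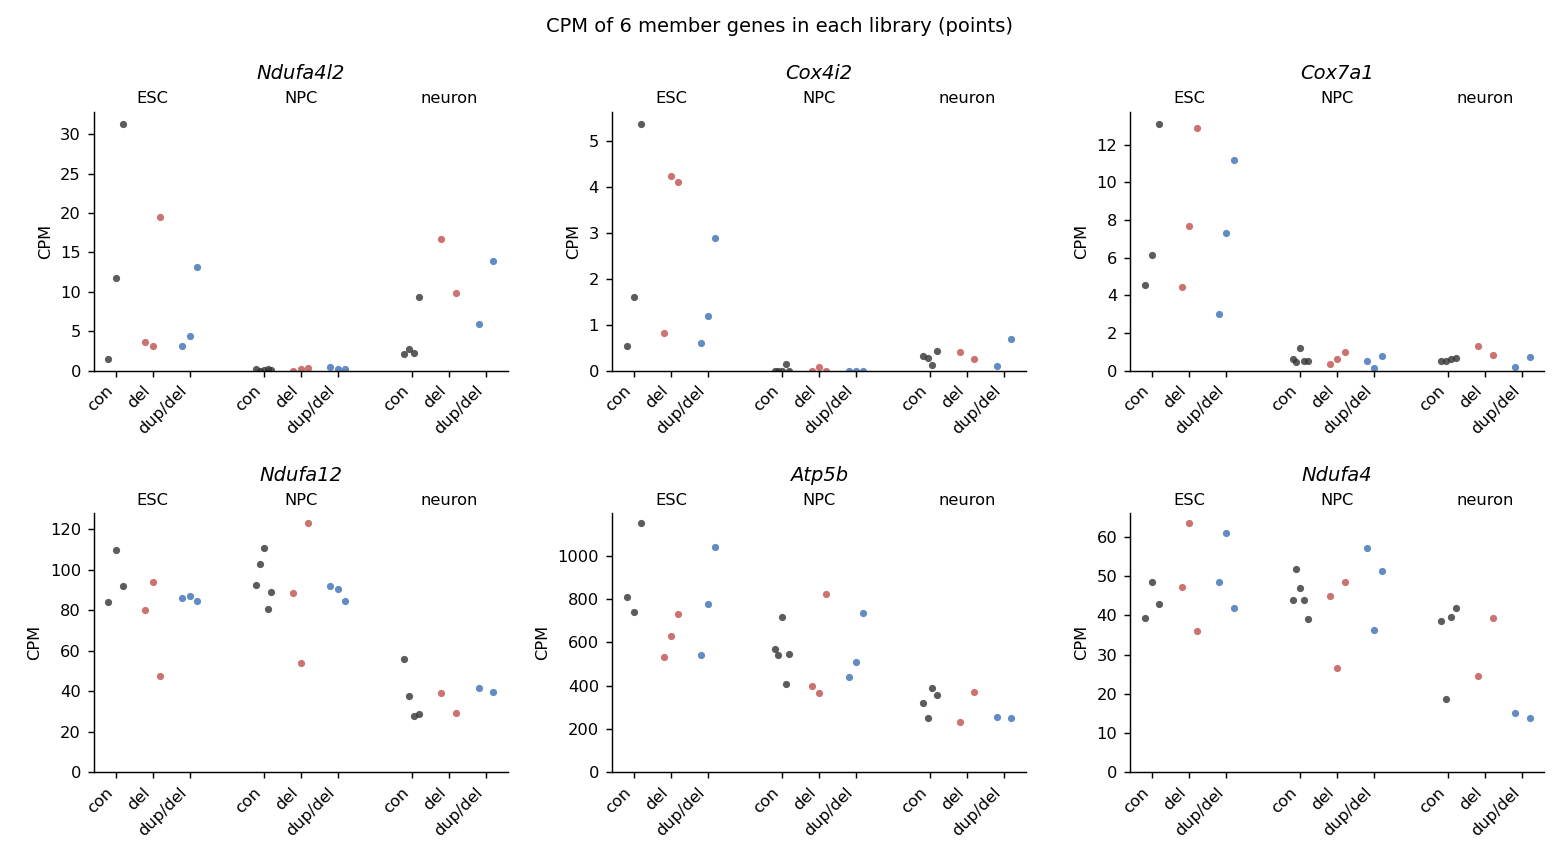
CPM (y axis) of 6 members in each library (points), by stage and genotype (x axis). Ndufa4l2, Cox4i2 and Cox7a1 are at most 1.21 CPM in every NPC library, Ndufa12 is lower in all control neuron than in all control NPC libraries, and Ndufa4 is at 13.7 and 15.1 CPM in duplication-deletion neurons and 18.7 CPM in control neuron replicate 2.

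Subunit c, which forms the rotor ring of ATP synthase, is made as the same mature protein from Atp5g1, Atp5g2 and Atp5g3. Counting may have split reads between such related genes. Atp5g1 took 28.9% ± 3.02 of the summed counts of the 3 genes in control ESCs (SD, n = 3), 21.3% ± 3.07 in NPCs (n = 5) and 28.1% ± 5.15 in neurons (n = 4). The share was 7.68 percentage points lower in NPCs than ESCs (exact two-sided permutation p = 0.0357, adjusted p = 0.0952 over the 3 stage pairs). Neurons were 6.81 points above NPCs (exact p = 0.0635, adjusted p = 0.0952). Neither passed after adjustment, and the first could not have: 0.0357 is the smallest p that 3 against 5 libraries allow, and ESC against neuron cannot go below 0.0571. ESC and NPC shares did not overlap, at 25.5% or more and 24.2% or less. Atp5g2 held the largest mean share at each control stage, 38.4%, 44.5% and 39%. In deletion ESCs the Atp5g1 share ran from 18.2% to 40.2%, a range that takes in all 3 control ESC libraries.

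The mutant lines passed through the same stages, in fits that share no library with the control fit. From ESC to NPC, 3 of 82 members fell in deletion cells (29.9% of all genes passed) and 7 of 81 in duplication-deletion cells (31.8%). Ndufa4l2, Cox4i2 and Cox7a1 were called in all 3 genotypes, which is 18.8% of the control calls, 100% of the deletion calls and 42.9% of the duplication-deletion calls. The overlap between genotypes was not counted over all genes, of which 41.5% passed in control cells, so these shares have no background beside them. In deletion cells Ndufa4l2 went from 3.6, 3.14 and 19.5 CPM to 0, 0.219 and 0.345 CPM (-5.60, adjusted p = 0.00542). In duplication-deletion cells it went from 3.1, 4.34 and 13.2 CPM to 0.514, 0.179 and 0.187 CPM (-4.45 ± 0.804, adjusted p = 0.00325). Cox7a1 had -3.66 and -3.88 in these lines (adjusted p = 0.00268 and 0.00926). Cox4i2 had 147 counts over the duplication-deletion ESC libraries and 0 in NPCs, 60.3-fold lower with NPCs set at the floor of 3 counts. In deletion cells it had -6.57 ± 1.39 (adjusted p = 0.00549). Duplication-deletion cells also had lower Atp5sl (-1.09), Cox7b (-0.88), Ndufv3 (-0.81) and Ndufa6 (-0.85), all of them called in control cells. With the replicate number as a block, 3 members passed: Ndufa4l2, Cox4i2 and Cox7a1. Atp5sl, Cox7b and Ndufv3 each lost this call without at least 1 library, among them duplication-deletion ESC replicate 2 (adjusted p from 0.0516 to 0.111 over all such libraries).

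From NPC to neuron 4 of 82 members passed in deletion cells (19.9% of all genes, 10.5% higher and 9.39% lower) and 5 of 81 in duplication-deletion cells (15%, 8.04% higher and 6.95% lower). Ndufa4l2 (higher) and Ndufa12 (lower) passed in all 3 genotypes, an overlap that was not counted over all genes. Ndufa4l2 reached 16.7 and 9.86 CPM in deletion neurons (6.23 ± 1.24, adjusted p = 0.00718) and 5.94 and 13.9 CPM in duplication-deletion neurons (5.04 ± 0.849, adjusted p = 0.0057), and these calls held without any single library. Ndufa12 had 39.1 and 29.2 CPM in deletion neurons (-1.38 ± 0.431, adjusted p = 0.0477) and 41.7 and 39.6 CPM in duplication-deletion neurons (-1.11 ± 0.245, adjusted p = 0.0173). The Ndufa12 calls were lost without either mutant neuron library (adjusted p from 0.104 to 0.214 in deletion cells over 4 libraries, 0.138 and 0.158 in duplication-deletion cells). In deletion cells Ndufa12 also missed the threshold with RLE factors (adjusted p = 0.0658), with the largest entry left out (0.0517), without the shallow libraries (0.0789) and with the replicate number as a block (0.0844). Without 1 mutant neuron library that arm holds a single sample, which is then assumed to vary like the other groups of the fit.

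The remaining calls were not shared by all genotypes. In deletion cells Atp5s rose (1.53 ± 0.482, adjusted p = 0.0488), a call lost without any 1 library, and Cox4nb fell from 22, 40 and 43 CPM to 9.08 and 9.54 CPM (-1.91 ± 0.418, adjusted p = 0.0113). In duplication-deletion cells Cox4i2 had 0 counts in NPCs and 47 in neurons, at least 19.1-fold higher (adjusted p = 0.0374). Cox7b fell (-1.11 ± 0.301, adjusted p = 0.0379), and Ndufa4 fell from 57.2, 36.3 and 51.2 CPM to 15.1 and 13.7 CPM (-1.72 ± 0.319, adjusted p = 0.00846). Cox4nb and Ndufa4 lost these calls without either neuron library of their line (adjusted p from 0.0538 to 0.0898). The Cox4i2 call was lost without any 1 of 5 libraries (adjusted p from 0.0536 to 0.183) and the Cox7b call without 4 of 5 (adjusted p from 0.0693 to 0.224). When the steps of mutant and control cells were compared in 1 fit of all libraries, 0 members passed in any of 4 contrasts, where at most 0.005% of all genes did. Of 85 members, 0 and 0 had an unadjusted p below 0.05 at the first step, for deletion and duplication-deletion. At the later step 1 (Cox4nb) and 6 did. Over all 19996 genes tested the counts were 643 and 534 at the first step and 619 and 1004 at the later one. The smallest p of a member belonged to Ndufa4 at the later step in duplication-deletion cells (-1.36 ± 0.405 relative to control, unadjusted p = 0.0026, adjusted p = 0.962). DESeq2 gave 0 member calls there as well. Member medians of these differences were 0.44 and 0.23 at the first step and -0.18 and -0.46 at the later one, and without the shallow libraries they were -0.10, 0.08, 0.19 and -0.24.

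The genotype comparisons ask what loss of 1 copy of 7qF3, or its rearrangement at normal copy number, does to these genes. Of 8 members with a position on chromosome 7, the nearest to the region, Uqcrc2 (mm9 chromosome 7, 127778703 to 127803037), is 6.1 Mb from the interval gene Mapk3. With edgeR, 0 members passed in any of 9 comparisons. Few genes passed at all: 0% of those tested in all 3 ESC comparisons, 0.00596%, 0.0119% and 0.0238% in NPCs (deletion against control, duplication-deletion against control, and deletion against duplication-deletion) and 0%, 0.039% (0.0112% higher, 0.0279% lower) and 0.0335% (0.0279% higher, 0.00558% lower) in neurons. In the same order, members with an unadjusted p below 0.05 numbered 2, 0 and 1 of 82 in ESCs and 0, 0 and 1 of 81 in NPCs. In neurons they numbered 1, 3 and 4 of 82. Over all genes the counts were 207, 51 and 164 of 16470 in ESCs and 598, 447 and 673 of 16783 in NPCs. In neurons they were 651, 1295 and 1586 of 17931. DESeq2 also gave 0 in each. The authors' deposited table, which lists 80 to 83 members per comparison with control, called none of them, where it called 0.0211% and 0.0361% of all genes in ESCs, 0.844% and 0.37% in NPCs and 0.279% and 1.15% in neurons for deletion and duplication-deletion.

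**Figure D5:**
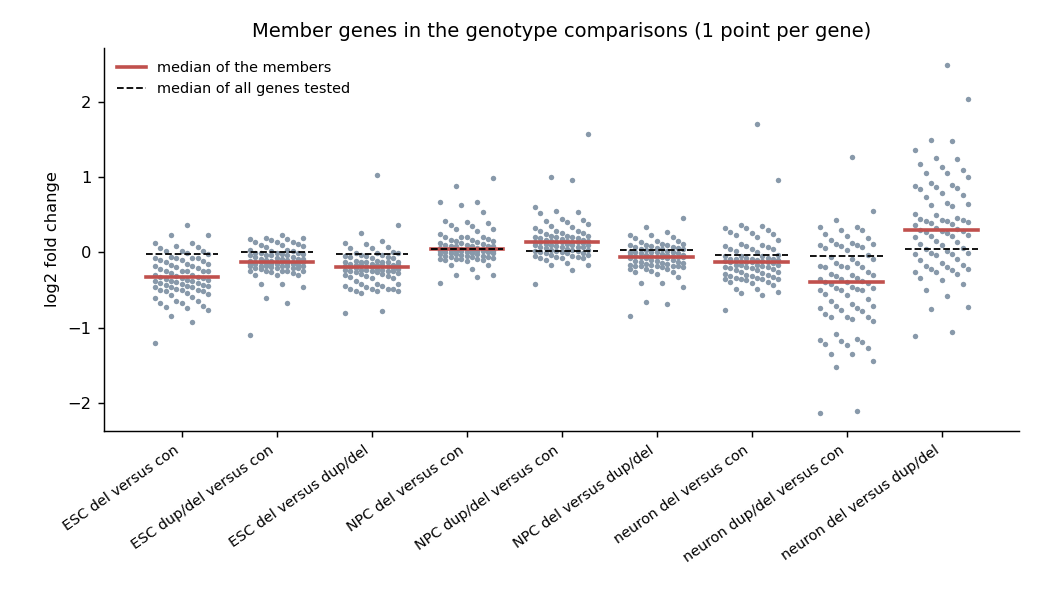
Log2 fold change (y axis) of each tested member in 9 genotype comparisons (x axis); points are genes, solid lines the member median and dashed lines the median of all genes tested. No point passed the threshold; the member medians run from -0.40 in duplication-deletion against control neurons to 0.29 in deletion against duplication-deletion neurons.

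In deletion ESCs most members had slightly negative values. The median was -0.33, with 71 of 82 negative, against -0.02 over all genes, and the complexes ran from -0.27 (II) to -0.48 (III). Uqcr10, a small complex III subunit, had 20.7, 19.9 and 24.1 CPM against 27.5, 32 and 46 CPM (-0.64 ± 0.266, unadjusted p = 0.0368, adjusted p of 1), and the groups did not overlap. The summed member level was below that of the control with the same replicate number in all 3 pairs, at 4965 against 5641 CPM, 6072 against 6663 CPM and 4937 against 7181 CPM, and with that number as a block the median stayed at -0.33. The median was -0.14 without control ESC replicate 3 and -0.21 without the shallow libraries, and cytosolic ribosomal protein genes had the same median, -0.33, with 76 of 80 negative. Duplication-deletion ESCs, which share these controls, had a member median of -0.13 (64 of 82 negative), which was 0.05 without duplication-deletion replicate 1 and 0.03 without control replicate 3. Summed levels in duplication-deletion ESCs were also below the same-numbered controls in all 3 pairs. They were 5063 against 5641 CPM, 6626 against 6663 CPM and 6672 against 7181 CPM. Their members with the smallest p, Uqcr10 (-0.47 ± 0.264) and Ndufa4l2 (-1.10 ± 0.997), had unadjusted p of 0.107 and 0.294. Between the mutant ESCs the median was -0.20, led by Atp5k (-0.54 ± 0.235, unadjusted p = 0.0444) and Atp5j2 (-0.48 ± 0.252), small membrane subunits of ATP synthase.

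In NPCs the medians turned with 1 replicate. Summed fibroblast markers were 66.3 to 197 CPM in deletion, 163 to 546 CPM in control and 356 to 512 CPM in duplication-deletion NPCs, and their part was not tested. Deletion against control had a median of 0.04 (53 of 81 positive), which became -0.42 without deletion replicate 5 and -0.35 without the shallow libraries. That library had a summed member level of 6411 CPM, against 4056 and 3913 CPM in the other deletion NPC libraries, and stood high on the Uqcrq axis. Duplication-deletion against control had 0.13, or -0.11 without duplication-deletion replicate 5, and deletion against duplication-deletion had -0.06, or -0.54 without deletion replicate 5 and 0.15 without duplication-deletion replicate 5. The members with the smallest p were Ndufv3 (0.36 ± 0.186) and Ndufb3 (0.35 ± 0.22) in deletion cells, Atp5f1 (0.37 ± 0.188) and Cox6b2 (0.99 ± 0.672) in duplication-deletion cells, and Atp5f1 (-0.47 ± 0.213, unadjusted p = 0.0476) and Ndufa11 (-0.66 ± 0.413) between the mutants.

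In duplication-deletion neurons the member median was -0.40, with 62 of 82 negative, against -0.05 over all genes. Ndufa4 (mm9 chromosome 6, 11850373 to 11857446) had 15.1 and 13.7 CPM, and control neurons 38.5, 18.7, 39.6 and 42 CPM (-1.28 ± 0.381, unadjusted p = 0.00806, adjusted p = 0.636). Both mutant libraries lay below all controls, and control replicate 2 lay close to them. Cox7b had 22 and 21 CPM against 36.9, 28, 44.3 and 48.8 CPM (-0.89 ± 0.298, unadjusted p = 0.0149, adjusted p = 0.647), again with control replicate 2 the nearest. Ndufc1, a small complex I subunit, had 3.7 and 4.62 CPM against 14.3, 4.03, 14.5 and 14.9 CPM (-1.53 ± 0.534, unadjusted p = 0.018). Here control replicate 2 lay between the mutant libraries, and Ndufc1 is named after its value was seen. Without control replicate 2, Ndufa4 had -1.48 and an adjusted p of 0.352, and over the alternatives that p ran from 0.107 with DESeq2 to 1. Both mutant libraries were low on the Uqcrq axis (3.44% and 3.54%), as were control replicates 1 and 2 but not 3 and 4, and the part of that axis in the median was not tested. Ribosomal protein genes had a median of -0.23. Summed erythroid and endothelial markers (5 genes, with Hbb-b1 at 0) were 24.2 and 45.2 CPM in duplication-deletion and 3.66 to 17.1 CPM in control neurons, without overlap, and their part was not tested.

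The 8 dopaminergic markers together had 197 and 246 CPM in deletion neurons, 528 to 705 CPM in control neurons and 476 and 1227 CPM in duplication-deletion neurons, and their part in the neuron comparisons was not tested. Deletion neurons had a member median of -0.13 against control, which was -0.58 without deletion replicate 3 and 0.20 without deletion replicate 1. With 2 libraries at opposite ends of the Uqcrq axis (0.741% and 29.6%), the direction followed whichever library was kept. Ndufa4l2 had 16.7 and 9.86 CPM, both above the control values of 2.15, 2.71, 2.2 and 9.33 CPM (1.71 ± 0.645, unadjusted p = 0.0258, adjusted p of 1), and Cox5b had -0.53 ± 0.297. Deletion against duplication-deletion neurons had a median of 0.29, or -0.26 without deletion replicate 3. The smallest p in that comparison belonged to Ndufa1, a complex I subunit encoded on the X chromosome, and Ndufa4. Ndufa1 had 9.11 and 10.6 CPM in deletion and 22.5 and 21.1 CPM in duplication-deletion neurons, and 12.7, 22.1, 12.1 and 12.1 CPM in controls, so control replicate 2 again lay with the duplication-deletion libraries.

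Genes that work with the subunits were looked at over the same control steps. The counts below stand against 41.5% of all genes tested at the first step (21% higher, 20.5% lower) and 43.7% at the next (23.2% higher, 20.5% lower). Of 29 tested genes for assembly of the complexes, 1 rose and 7 fell from ESC to NPC (median -0.47) and 2 rose and 9 fell from NPC to neuron (median -0.30). Cox17, a copper chaperone for complex IV, had 9.48, 6 and 14.9 CPM in ESCs and 1.07 to 3.01 CPM in NPCs (-2.36 ± 0.458, adjusted p = 0.001). Sco1, another copper carrier of that pathway, had 27.2 to 32 CPM in ESCs and 22.3 to 27.5 CPM in NPCs (-0.30 ± 0.184, adjusted p = 0.205) and 6.62 to 8.08 CPM in neurons (-1.71 ± 0.178, adjusted p = 5.58e-06). Among 25 electron carriers and exchange proteins 1 rose and 9 fell, then 2 rose and 4 fell. Cycs, somatic cytochrome c, had 121 to 241 CPM in NPCs and 95.4, 65.1, 34.4 and 42.1 CPM in neurons (-1.65 ± 0.333, adjusted p = 0.00125). The testis form Cyct had 13.1 to 45.9 CPM in ESCs and at most 0.0867 CPM in NPCs (-9.04, adjusted p = 1.83e-05). Of 17 genes of the tricarboxylic acid cycle and its entry, 6 fell and 0 rose at the first step and 5 fell and 0 rose at the next. Suclg2, the GTP-forming succinyl-CoA synthetase subunit, was among them both times (-1.02 and -1.51). Only 1 mitochondrially encoded gene, mt-Nd4, was tested, and it was not called at either step (adjusted p = 0.217 and 0.302), with 1121 to 5719 CPM in control ESCs.

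Of 18 tested regulators of mitochondrial gene expression, 1 rose and 5 fell from ESC to NPC, where 41.5% of all genes passed, and 2 rose and 10 fell from NPC to neuron, where 43.7% did. Esrrb, an estrogen-related receptor of pluripotent cells, fell (-6.86 ± 0.447, adjusted p = 1.9e-07), and its relative Esrrg rose at both steps (4.82 ± 0.845 and 4.38 ± 0.547), to 56.5, 30.5, 50.4 and 19.6 CPM in neurons. Nrf1, whose motif is counted above, had 43.4 to 52.5 CPM in NPCs and 12.8 to 18.5 CPM in neurons (-1.54 ± 0.185, adjusted p = 1.89e-05), and Gabpa fell at both steps (-1.25 ± 0.235 and -0.95 ± 0.225). Ppargc1a, the coactivator known for driving mitochondrial biogenesis and named after its value was seen, rose to 5.29 to 11.4 CPM in neurons from at most 0.768 CPM in NPCs (5.20 ± 1.14, adjusted p = 0.00223). As a further comparison, 31 of 80 cytosolic ribosomal protein genes fell from ESC to NPC (median -0.74) and 50 of 80 from NPC to neuron (median -0.98), where 20.5% of all genes fell at either step, and none rose.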

How the data were processed

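RNA of 28 libraries was sequenced as stranded total RNA in 75-base read pairs, per the labels' protocols; 6 Hi-C samples were not analysed here. The authors deposited expected counts per gene, and STAR 2.6.0c, RSEM 1.3.0, DESeq2 1.22.2 and mm9 are named in the submitters' processing notes. The authors' deposited table of comparisons gives log2 fold changes and p-values per gene for each mutant group against its control. Its mean signal (scaled counts) and test score, also deposited, were not used.

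After 92 spike-in entries had been dropped, expected counts were taken to the nearest whole number and fitted with edgeR 4.0.16 (R 4.3.3, limma 3.58.1, TMM factors, filterByExpr, robust quasi-likelihood, two-sided, Benjamini-Hochberg over all genes tested, threshold 0.05) within each stage for genotypes, within each genotype for stages, and over all libraries for differences between steps. Log2 CPM used a prior count of 2. No sample column was left unmapped. Of the 85 members, 80 passed the low-count filter in every fit.

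Members, gene lists and tests were chosen with earlier results of these data known. Named members were, for control steps, those past the threshold with the largest change in each complex, plus fixed isoform sets, and elsewhere those with the smallest p. The values of 1 member that this rule picks are not reported here. In ESCs all 9 pairs of libraries with the same replicate number deviated together (correlation 0.224 to 0.692, highest for replicate 3). The 18 pairs with different numbers ran from -0.491 to 0.24, which overlaps that range. Deviations from a group mean cancel out within the group, so the pairs are not independent. The numbers may thus pair those libraries, and the block changed no call there. Replicates of a group were never identical. Alternatives were DESeq2 1.42.0, RLE factors, no filter, the largest entry or the shallow libraries left out or the latter as a term, the replicate block, and each library left out in turn. Depth limits precision. Counting floors cover only the counting error of the group without counts and take the other group's counts as they stand. Exact permutation tests used scipy 1.17.1, with pandas 2.3.3 and numpy 2.4.6.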

Additional observations from a re-analysis of the deposited data

Results flagged for a closer look

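Dixon's test was run on 96 sets of library values, 1 set for each named member or summary measure in control NPCs and in control neurons. By this test 10 library values, in 5 libraries, stood apart from the rest of their set. Chance gives about 1 set in 20 for independent, normally spread values. The members are not independent, as 1 axis held 72.2% of their replicate variation, and some were named for a small p in comparisons with these groups.

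Of the 10 values that stood apart, 5 were in control neuron replicate 2. It had a summed member level of 2965 CPM, against 3715 to 3841 CPM in the other control neurons. Ndufa4 was at 18.7 CPM there (others 38.5 to 42 CPM), Ndufc1 at 4.03 CPM (14.3 to 14.9 CPM), Sdhc at 18.5 CPM (37.9 to 40.7 CPM) and Ndufa1, in the other direction, at 22.1 CPM (12.1 to 12.7 CPM). Both duplication-deletion neuron libraries had similar values for Ndufa4 (15.1 and 13.7 CPM), Ndufc1 (3.7 and 4.62 CPM) and Ndufa1 (22.5 and 21.1 CPM). The labels name it as a control, and it was kept as one.

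Control neuron replicate 4 stood apart for Ndufa4l2, at 9.33 CPM against 2.15 to 2.71 CPM. In control NPCs, replicate 3 was high for Uqcrh (202 CPM, others 111 to 135 CPM) and Cox7a1 (1.21 CPM, others 0.433 to 0.597 CPM). Replicate 5 was high for Cox5a (19.6 CPM, others 7.42 to 9.98 CPM), and replicate 4 alone had Cox4i2 reads (0.138 CPM, others 0). With all others at 0, any reads in 1 library would be flagged.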

How the results depend on the processing

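The count of 0 members in each genotype comparison and each difference between steps held under every alternative run, and no called value changed sign. Counts of members past the threshold in the stage steps moved more. With DESeq2 they were 6 and 7 in deletion cells (ESC to NPC, then NPC to neuron; 3 and 4 with edgeR) and 11 and 8 in duplication-deletion cells (7 and 5). Without the shallow libraries they were 5 and 2 in deletion cells. Leaving out 1 library at a time gave 10 to 16 and 9 to 15 in control cells, 3 to 6 and 1 to 4 in deletion cells, and 3 to 9 and 1 to 4 in duplication-deletion cells. The cause of these shifts was not tested. With the replicate number as a block, the control counts were 15 and 12 and the deletion counts 4 and 2, and the later duplication-deletion step had 6. In NPCs and neurons same-numbered libraries also tended to deviate together. Such pairs correlated over 0.1 in 5 of 7 cases in NPCs (median 0.388) and 3 of 4 in neurons (median 0.355). Pairs with different numbers did so in 8 of 32 cases in NPCs (median -0.0468) and 2 of 16 in neurons (median -0.0506). Deviations were taken from group means, so they cancel out within a group and the pairs are not independent cases. In neurons the libraries of a mutant group mirror each other. A positive correlation with 1 of them is there a negative one with the other, so this contrast is largely built in. The main fits do not use the number. For 3 comparisons whose groups share fewer than 2 numbers, the block could be fitted only over all groups of the fit, an alternative chosen after seeing the data. It gave 0 members for deletion against duplication-deletion in NPCs and neurons, and 3 for the first step in duplication-deletion cells, with few libraries left to estimate the spread. Cox7b2, Cox8b and Cox8c had too few counts for most tests.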

Other observations

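The members of low and high level differed in direction from NPC to neuron in control cells, a split chosen after the values were seen. Of the 42 members in the upper part by mean level, 7 had positive values (median -0.32), and of the 40 in the lower part 30 did (median 0.30). All genes tested showed the same kind of split, with medians of -0.49 and 0.37.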
